A study of Rattus norvegicus with 10 samples.

Results

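This report sets myoblasts from the soleus muscle of rats after 7 days of hindlimb suspension (HS7) against those after 3 days (HS3). The comparison used the 2 HS3 and the 2 HS7 libraries, 4 of the 10 libraries of the study, chosen by the suspension day in the sample records. The other libraries came from cage controls (Control) and from rats suspended for 1 day (HS1) or 14 days (HS14), and they serve here only to place levels. The animals were male Wistar rats, 3 months old, and no allele or drug was involved. The length of suspension is the only difference between HS3 and HS7 that the sample labels name. Those labels give no batch of isolation, culture or sequencing, so a batch that went with the day could not be told apart from it. In hindlimb suspension the hind limbs are lifted off the floor and the soleus, a postural muscle, bears no weight. The muscle was digested with collagenase, and the cells were first cultured for some days on Geltrex. Fibro-adipogenic progenitors were then depleted by letting them stick to an uncoated dish. The cells that stayed afloat were grown for about 1 more day on Geltrex in rich growth medium before RNA was taken. The libraries therefore report cultured cells and not the muscle itself. Whether replicate libraries came from separate animals or cultures is not recorded, so every p-value measures the spread between these libraries, which may be technical.

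Satellite cells are the stem cells of skeletal muscle. Once activated they become myoblasts, which divide, leave the cell cycle, switch on the transcription factor myogenin and fuse into myotubes that build the contractile sarcomere. Notch signalling, in which a ligand on a neighbouring cell releases part of the Notch receptor to act in the nucleus, is known for holding satellite cells back from differentiation. Fibro-adipogenic progenitors, the connective tissue cells of muscle, make collagens and other matrix and can survive in such cultures. As a check on the labelled cell type, the myogenic genes *Myog*, *Mymk* and *Actc1* were measured well above background in all 4 libraries. The fibro-adipogenic markers *Pdgfra* and *Thy1* were measured in all 4 as well. In depth-scaled counts (CPM), *Myog* was at 418 and 378 in HS3 and at 852 and 649 in HS7. *Mymk* was at 124 and 128 in HS3 and at 304 and 201 in HS7. *Pdgfra* was at 298 and 290 in HS3 and at 60.2 and 60.7 in HS7. *Thy1* was at 863 and 996 in HS3 and at 163 and 146 in HS7. In HS3 *Thy1* lay above *Myog* and *Pdgfra* above *Mymk*, and in HS7 both markers lay below *Myog* and *Mymk*. The share of each cell type was not tested.

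The total count of the 4 libraries lay between 20200972 and 26007203, and a level of 3 counts, the smallest taken as detectable, corresponded to between 0.115 and 0.149 CPM (the usual depth-scaled count, taken below on TMM-scaled library sizes). Between replicate libraries the biological coefficient of variation came to 9.04% in HS3 and 8.74% in HS7. Among the 32622 genes of the count table, 13164 had enough counts for a test, and 14743 had 0 counts in all 4 libraries. The table carries Ensembl identifiers. Symbols were available only for genes that the study itself had called against Control at some time point, 752 of those tested, so the lists below are made of such genes and their counts are not independent evidence of a direction. Over these 752 genes the median log2 fold change (HS7 minus HS3) was -0.70, while over all 13164 it was 0.003, and 173 of the 752 rose and 334 fell. The counts of every list below are to be read beside these shares. Pairs of values are given as replicate 1 and replicate 2. Over the muscle genes described below, the 2 HS7 libraries stood apart from each other, which is set out before those results.

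Between day 3 and day 7 more genes fell than rose. At an adjusted p of 0.01 (quasi-likelihood test of edgeR, Benjamini-Hochberg adjustment), 1327 genes rose (10.1% of those tested) and 1701 fell (12.9%), together 23.0%. With a log2 fold change beyond 1.5 as well, the study's definition of a differentially expressed gene (DEG), 214 rose (1.63%) and 432 fell (3.28%), together 4.91%. Of these DEGs, 102 that rose and 264 that fell had a symbol. HS7 had the highest mean of the 5 groups in 1028 of the 1327 genes that rose. HS3 had it in 1261 of the 1701 genes that fell. Counts of highest groups in the lists below are to be read beside these shares. Both HS7 libraries were above both HS3 libraries in 34.1% of the genes tested and below them in 34.2%, whatever the test said, and the groups overlapped in none of the genes that rose or fell. In the plot of fold change against mean expression the largest changes of either direction lay among genes of low expression.

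**Figure D1:**
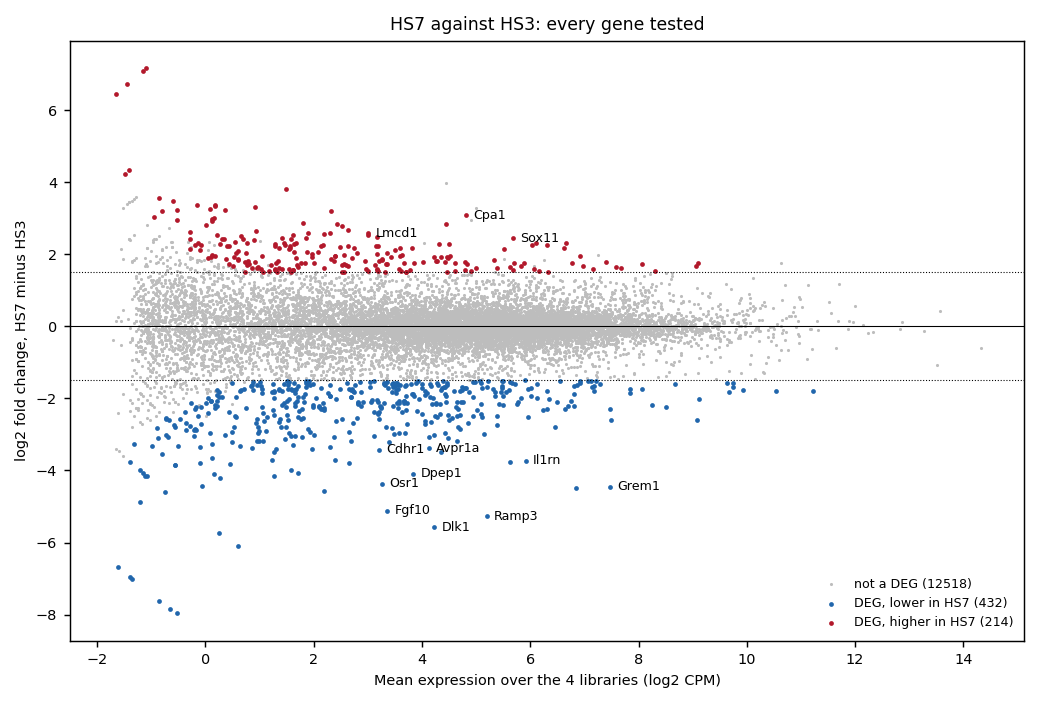
Each point is 1 of the 13164 genes tested, with mean expression over the 4 libraries (log2 CPM) on the horizontal axis and the log2 fold change, HS7 minus HS3, on the vertical axis. Red points are the 214 DEGs that rose and blue points the 432 that fell, dotted lines mark a log2 fold change of 1.5 in either direction, and named points are some of the genes with the largest changes among those with a symbol.

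The largest rises among well expressed genes with a symbol were in genes of unlike function. *Cpa1*, which encodes a carboxypeptidase best known from the pancreas, was at 5.13 and 6.44 CPM in the HS3 libraries and at 47.7 and 51.4 CPM in the HS7 libraries, with a log2 fold change (given after the levels from here on) of 3.09 (standard error, SE, 0.14, adjusted p = 2.66e-09). The lower HS7 library stood far above the higher HS3 library. *Lmcd1*, a LIM domain protein that binds GATA factors, rose by 2.59. *Vdr*, the vitamin D receptor, rose by 2.28, from 8.07 and 5.43 CPM to 31.9 and 33.1 CPM. *Lrrn1* (2.32) and *Crispld2* (2.31), which encode a leucine-rich repeat membrane protein and a secreted protein, rose by similar amounts, as did *Mest* (2.17), an imprinted gene, and *Rnf150* (2.16), a RING finger gene. *Mest* was at 40.8 and 30.4 CPM in HS3 and at 137 and 183 CPM in HS7. Its call was lost when HS3 replicate 2 was left out (adjusted p = 0.0138), and the other 10 of the 11 rises plotted here passed under each of the 10 alternatives that kept the fold-change rule.

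The largest falls were larger than the largest rises, and several were in secreted signals and their receptors. *Dlk1*, a membrane protein of the delta-like family found on progenitor cells, was at 33.0 and 40.9 CPM in HS3 and at 0.938 and 0.612 CPM in HS7, log2 fold change -5.57 (SE 0.21, adjusted p = 8.66e-10). *Ramp3*, a subunit of the adrenomedullin receptor, fell from 64.5 and 79.0 CPM to 2.46 and 1.26 CPM (-5.27, SE 0.23), and *Adm*, which encodes the peptide adrenomedullin, fell from 35.8 and 39.5 CPM to 4.42 and 2.29 CPM (-3.49, SE 0.23). A peptide and a part of its receptor thus fell in the same cultures, with no overlap between the groups in either gene.

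*Aqp1*, a water channel, was at 222 and 220 CPM in HS3 and at 9.34 and 10.4 CPM in HS7 (-4.48, SE 0.10, adjusted p = 2.39e-12). *Il1rn*, the secreted antagonist of the interleukin-1 receptor, fell from 101 and 124 CPM to 10.0 and 6.96 CPM (-3.73). *Esm1*, a secreted proteoglycan of endothelial cells, fell from 98.3 and 86.5 CPM to 7.78 and 5.70 CPM (-3.78). In all of these the HS3 libraries lay close together and the HS7 libraries were at least several times lower. *Dpep1*, a membrane dipeptidase (-4.09), *Cdhr1*, a cadherin-related protein (-3.42), and *Avpr1a*, a vasopressin receptor (-3.38), fell by comparable amounts. All 12 of the largest falls passed under each of the 10 alternatives.

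**Figure D2:**
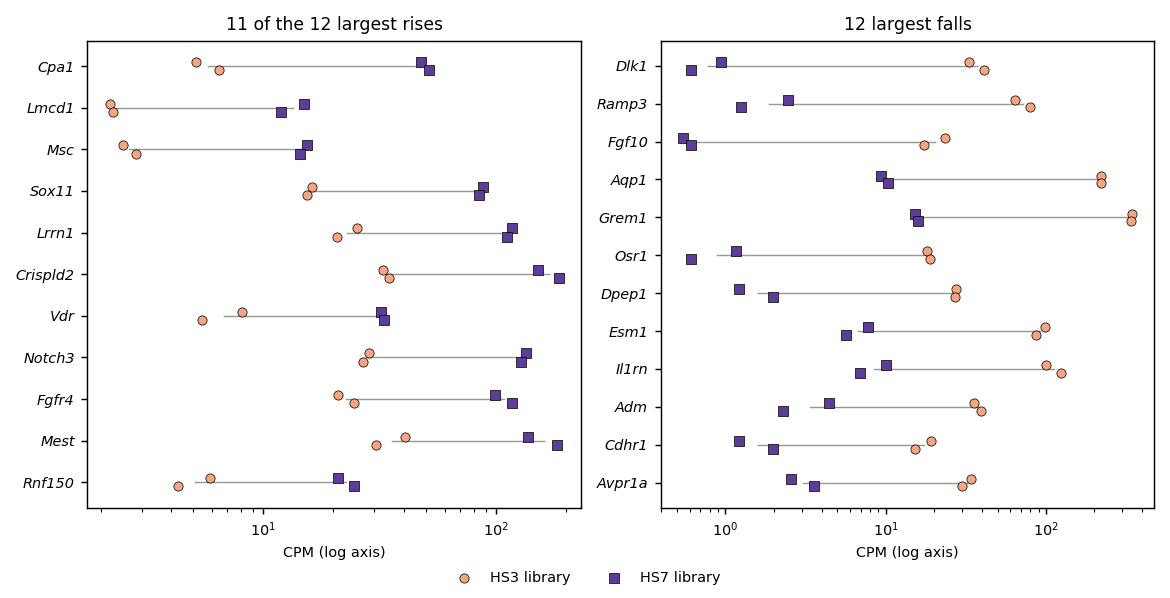
Each row is 1 gene and each symbol 1 library, as CPM on a log axis, with HS3 libraries as orange circles and HS7 libraries as purple squares, and a grey line joining the group means. On the left are 11 of the 12 largest rises and on the right the 12 largest falls, and in none of the 23 genes did the libraries of the groups overlap, which the rule for naming them required.

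Genes without a symbol were affected too, and are given by identifier only. ENSRNOG00000015071 rose from 8.37 and 6.83 CPM to 35.8 and 38.5 CPM (log2 fold change 2.30) and ENSRNOG00000037339 from 2.64 and 3.38 CPM to 14.5 and 14.3 CPM (2.25). ENSRNOG00000033527 fell from 72.2 and 70.4 CPM to 12.9 and 12.7 CPM (-2.48) and ENSRNOG00000048433 from 49.0 and 51.2 CPM to 8.17 and 7.57 CPM (-2.67). In each of these genes the libraries of a group agreed closely, and the groups did not overlap.

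The Notch pathway was the only functional list of which every member passed. All 6 of its measured members rose, and the median log2 fold change was 2.11. Among all genes tested 10.1% rose, and among the 752 with a symbol 173 did. All 6 passed under each of the 10 alternatives. The paper lists all 6 as Notch genes upregulated in HS7 against Control, so their shared rise is not independent evidence about the pathway. It also places there *Tgfb2* (1.49) and *Tp63* (2.67), which rose, and *Postn* (0.30), which did not pass. *Dlk1*, of the delta-like family, fell (-5.57). These stand in other lists here. *Tspan15* and *Grip2*, which the paper also counts among its Notch genes, stand in none. The list of 6 is thus only a part of the paper's set, and with *Postn* in it not every member would have passed. The promoters of 2 members, the target gene *Hey2* and the ligand *Dll1*, are shown because they hold the letters TGGGAA, the core that the Notch partner RBPJ is known to bind. The sequences are from RefSeq on the build GRCr8, the 250 bases before the most upstream start, 5′ to 3′ on the strand of the gene, with TGGGAA or its reverse complement TTCCCA in capitals. *Hey2* lies on the plus strand at chr1:28640850-28641099 and *Dll1* on the minus strand at chr1:64993275-64993524.
Hey2: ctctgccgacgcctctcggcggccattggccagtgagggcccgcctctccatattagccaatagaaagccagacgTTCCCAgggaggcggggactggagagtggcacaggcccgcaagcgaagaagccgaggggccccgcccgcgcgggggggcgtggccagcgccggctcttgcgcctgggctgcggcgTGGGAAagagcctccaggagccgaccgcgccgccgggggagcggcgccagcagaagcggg
Dll1: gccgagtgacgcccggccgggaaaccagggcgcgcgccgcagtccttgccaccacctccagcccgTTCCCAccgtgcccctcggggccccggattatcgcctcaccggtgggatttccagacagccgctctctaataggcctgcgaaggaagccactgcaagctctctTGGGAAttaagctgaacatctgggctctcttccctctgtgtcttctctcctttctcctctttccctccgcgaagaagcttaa
The copies began at positions -175 and -60 from the start in *Hey2* and at -185 and -82 in *Dll1*. TGGGAA, searched on both strands, was in 2 of the 6 promoters of the list (33.3%) and in 5927 of all 27457 promoters of the same length (21.6%). The motif was chosen after the rise was seen, and a match describes letters and not a binding site.

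Both receptors of the list rose. *Notch3* was at 28.4 and 26.7 CPM in the HS3 libraries and at 135 and 128 CPM in the HS7 libraries, log2 fold change 2.25 (SE 0.09, adjusted p = 1.41e-09). *Notch1* was at 7.27 and 9.63 CPM in HS3 and at 25.1 and 17.4 CPM in HS7 (1.32, SE 0.20, adjusted p = 0.000262). The groups overlapped in neither receptor, although the HS7 libraries lay further apart in *Notch1*. *Dll1*, whose product is a Notch ligand, rose from 6.98 and 9.12 CPM to 19.3 and 16.1 CPM (1.13, SE 0.17, adjusted p = 0.000158).

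Known targets and modifiers of the pathway rose as well. *Heyl*, a repressor of the Hey family that Notch induces, rose from 47.5 and 51.5 CPM to 196 and 189 CPM (1.96, SE 0.09, adjusted p = 2.41e-09). *Hey2* was low in HS3, at 0.498 and 0.466 CPM, and reached 2.58 and 3.52 CPM in HS7 (2.65, adjusted p = 0.000164). *Dtx4*, a Deltex-type ubiquitin ligase of the pathway, rose from 1.74 and 1.09 CPM to 10.0 and 9.33 CPM (2.79, SE 0.26, adjusted p = 1.90e-06). For all 6 genes HS7 had the highest mean of the 5 groups. Summed over the list, the level was between 94.2 and 101 CPM in the HS3 libraries, between 375 and 403 CPM in the HS7 libraries and between 56.0 and 204 CPM in the 6 libraries of the other groups.

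*Notch3* and *Heyl* also mark mural cells, the contractile cells around small vessels. Of the 8 measured mural markers only these 2 rose, and 5 fell, among them the smooth muscle regulator *Myocd* (from 5.63 and 6.79 CPM to 0.547 and 0.191 CPM), *Lmod1* (-2.37) and the pericyte receptor *Pdgfrb* (-1.84), the last named after its value was seen and its call lost when either HS3 library was left out. The summed mural markers were at 463 to 508 CPM in HS3 and at 425 to 480 CPM in HS7, and no marker was at 0 in both groups. *Notch3* and *Heyl* alone made up most of the sum in both HS7 libraries, so the sum hides the falls of the other markers.

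**Figure D3:**
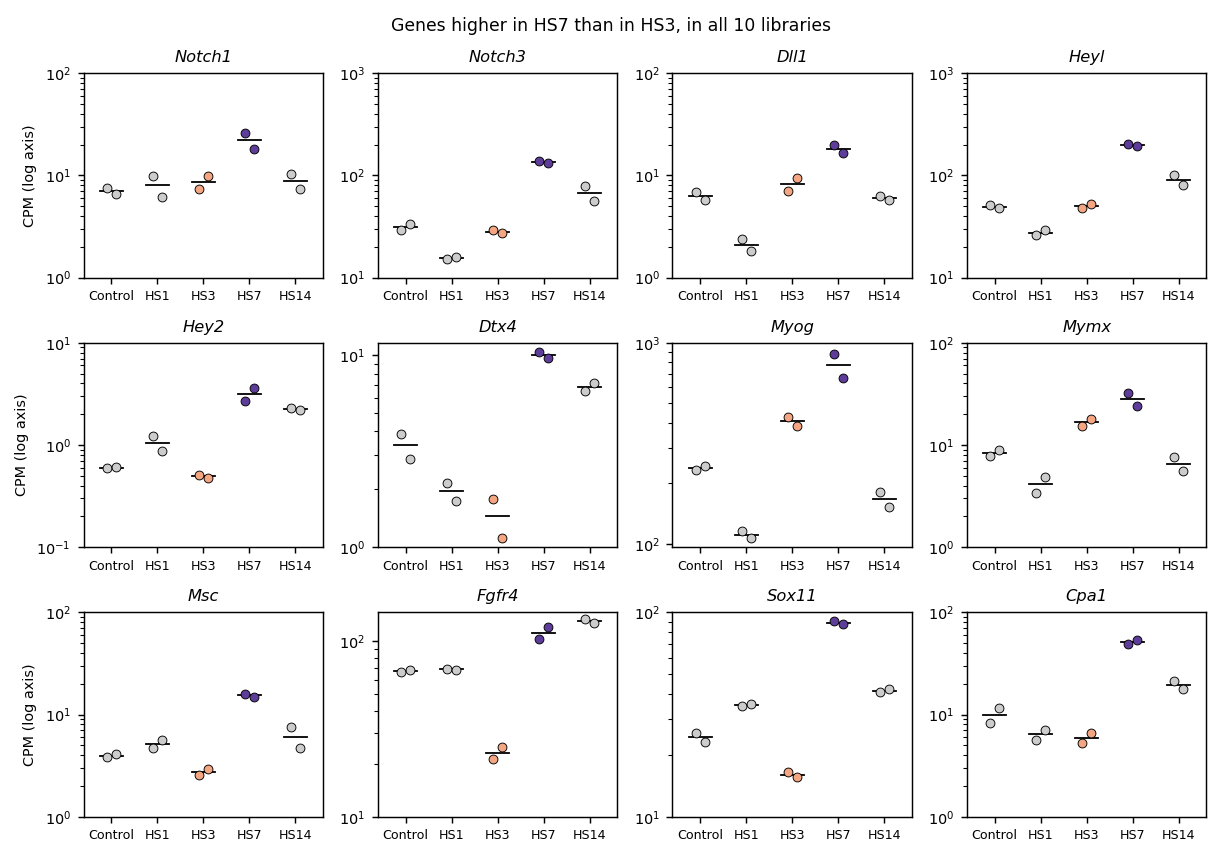
Each panel is 1 gene, each point 1 of the 10 libraries as CPM on a log axis, and each bar the mean of the 2 libraries of a group, with HS3 in orange, HS7 in purple and the other groups in grey. In 11 of the 12 genes HS7 had the highest mean, and *Fgfr4* was highest in HS14.

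Before the muscle genes are described, the spread between the HS7 libraries has to be given. Over the 88 members of the 4 muscle lists (regulators and fusion, sarcomere, excitation and calcium handling, energy metabolism), HS7 replicate 1 was higher than HS7 replicate 2 in 85, with a median log2 ratio of 0.742. In HS3 the same median was -0.0427. Of the 88 genes, 78 were on average higher in HS7, the median log2 fold change being 0.838, but only 18 rose and 5 fell at the threshold, and 47 had an unadjusted p under 0.05. Of the 752 genes with a symbol 173 rose and 334 fell, so the share that rose was no larger in the muscle lists. In a bulk library, fewer cells of a type and less RNA per cell cannot be told apart, and the source of the gap between the HS7 libraries was not tested.

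Among the 16 muscle regulators and fusion genes, 6 rose, 1 fell and 9 did not pass, beside 173 rises and 334 falls among the 752 genes with a symbol. The median log2 fold change was 0.87. The 2 largest rises were in genes tied to undifferentiated myoblasts. *Msc* (musculin), a repressor that competes with the myogenic factors, was at 2.49 and 2.83 CPM in HS3 and at 15.4 and 14.3 CPM in HS7 (2.47, SE 0.19, adjusted p = 3.17e-07). *Fgfr4*, a fibroblast growth factor receptor of myoblasts, rose from 20.9 and 24.5 CPM to 99.1 and 117 CPM (2.25, SE 0.11, adjusted p = 7.57e-09). In these genes the HS7 libraries did not share the gap of the list, and both calls passed under each of the 10 alternatives.

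*Fgfr4* was lower in HS3 than in any other group. The mean was 23.2 ± 2.65 CPM in HS3 and 112 ± 12.4 in HS7, beside 67.6 ± 1.36 in Control, 68.8 ± 0.336 in HS1 and 130 ± 4.51 in HS14 (SD, n = 2 each). *Msc* was lowest in HS3 too, at 2.72 ± 0.255 CPM, and highest in HS7, at 15.4 ± 0.851 CPM (SD, n = 2 each). *Lbh*, a transcriptional cofactor, rose from 9.97 and 8.50 CPM to 25.4 and 24.1 CPM (1.42).

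*Myog*, which encodes myogenin, rose less, from 418 and 378 CPM to 852 and 649 CPM, and *Mymx*, whose product drives myoblast fusion, from 15.2 and 17.4 CPM to 31.4 and 23.1 CPM. Each call of these genes was lost when either HS3 library was left out (*Myog* adjusted p up to 0.0347, *Mymx* up to 0.0356), and that of *Mymx* also without HS7 replicate 1. *Srpk3*, a muscle kinase named after its value was seen, rose by 0.83 (adjusted p = 0.00117), and its call was lost in the same fits as that of *Mymx*. Without HS7 replicate 2, 12 of the 16 genes rose, and without either HS3 library 3 did. *Mymk*, the other fusion gene, was at 124 and 128 CPM in HS3 and at 304 and 201 CPM in HS7. It did not pass in the fit of the 4 libraries (adjusted p = 0.0232) but did under 6 of the 10 alternatives, and its adjusted p ranged from 5.03e-23 to 0.347 over them. *Eya2*, a transcriptional cofactor of muscle development named after its value was seen, was the member that fell (-1.61, adjusted p = 0.00899), and its call was lost with RLE size factors and without HS3 replicate 1, HS3 replicate 2 or HS7 replicate 2.

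In the sarcomere list most members were higher in HS7 and few passed. Of its 39 members 38 had the higher mean in HS7 (median log2 fold change 0.93), yet 5 rose, 1 fell and 33 did not pass. The share that rose was below that of the 752 genes with a symbol, of which 173 rose. The 5 were *Tnni2*, *Nexn*, *Tmod1*, *Unc45b* and *Smpx*, the last named and *Tmod1* after their values were seen. *Tnni2*, fast troponin I, was at 17.4 and 20.9 CPM in HS3 and at 49.7 and 38.1 CPM in HS7 (1.19, SE 0.14, adjusted p = 2.94e-05). *Nexn*, an actin filament protein of the Z disc, rose by 1.11 and *Unc45b*, a myosin chaperone, by 1.08, and both calls were lost when either HS3 library was left out, as were those of *Tmod1* and *Smpx*.

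Several large mean differences did not pass in the fit of the 4 libraries. *Myh7*, the slow myosin heavy chain typical of the soleus, was at 5.58 and 5.24 CPM in HS3 and at 36.5 and 17.5 CPM in HS7 (2.32, SE 0.45, adjusted p = 0.0261). *Acta1*, skeletal actin, was at 619 and 637 CPM in HS3 and at 1982 and 1215 CPM in HS7 (1.35, adjusted p = 0.0384), and *Tnnt2*, cardiac-type troponin T, at 198 and 213 CPM and at 578 and 374 CPM (1.21, adjusted p = 0.0255). In all 3 both HS7 libraries were above both HS3 libraries, and in each HS7 replicate 1 was the highest library. *Myh7* passed under 6 of the 10 alternatives, *Tnnt2* under 5 and *Acta1* under 4, in each case with DESeq2 and with all 10 libraries in 1 fit among them. *Myh3*, embryonic myosin, was at 960 and 1022 CPM in HS3 and at 1918 and 1071 CPM in HS7 (0.59, adjusted p = 0.306), so that HS7 replicate 2 was close to HS3.

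*Actn3*, alpha-actinin 3 of fast fibres, was the 1 sarcomere gene that fell, from 30.1 and 28.1 CPM to 21.7 and 19.1 CPM (-0.51, adjusted p = 0.00436), and its call was lost without either HS3 library and without HS7 replicate 2. The number of sarcomere genes that rose was 35 without HS7 replicate 2, 16 without HS7 replicate 1, and 1 without HS3 replicate 1 or HS3 replicate 2. It was 13 with DESeq2, 15 with all 10 libraries in 1 fit and 16 with no expression filter.

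Summed over the list, the sarcomere genes were at 4919 and 5130 CPM in the HS3 libraries, at 13530 and 7850 CPM in the HS7 libraries, and between 1540 and 2226 CPM in the 6 libraries of the other groups (normalized over all 10 libraries). Each HS7 library was above each HS3 library in this sum, and both groups were above all others. The sums are of CPM and not per length, so long transcripts weigh more in them.

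The promoters of *Mymx*, *Srpk3* and *Nexn*, whose calls were each lost without either HS3 library, are shown because these are the genes among the muscle regulators and sarcomere genes that rose and hold the letters CAGCTG, an E-box of the form bound by myogenic factors. They are from RefSeq on GRCr8, the 250 bases before the start, on the strand of the gene, with CAGCTG in capitals. *Mymx* lies on the plus strand at chr9:22894274-22894523, *Srpk3* on the plus strand at chrX:156661720-156661969 and *Nexn* on the minus strand at chr2:243878153-243878402.
Mymx: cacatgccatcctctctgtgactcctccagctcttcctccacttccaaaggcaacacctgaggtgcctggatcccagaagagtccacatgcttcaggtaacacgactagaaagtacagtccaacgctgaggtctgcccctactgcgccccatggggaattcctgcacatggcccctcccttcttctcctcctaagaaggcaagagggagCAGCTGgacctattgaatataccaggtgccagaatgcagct
Srpk3: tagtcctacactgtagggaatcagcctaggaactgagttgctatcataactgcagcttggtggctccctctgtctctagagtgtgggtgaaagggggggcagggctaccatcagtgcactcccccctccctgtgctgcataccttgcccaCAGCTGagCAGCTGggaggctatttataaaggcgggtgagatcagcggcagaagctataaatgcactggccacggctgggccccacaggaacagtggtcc
Nexn: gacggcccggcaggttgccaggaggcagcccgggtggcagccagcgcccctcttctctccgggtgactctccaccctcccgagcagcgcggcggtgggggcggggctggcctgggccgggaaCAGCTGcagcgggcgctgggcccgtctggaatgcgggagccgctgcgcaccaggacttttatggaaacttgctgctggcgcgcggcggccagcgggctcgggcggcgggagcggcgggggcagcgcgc
CAGCTG began at position -41 in *Mymx*, at -100 and -92 in *Srpk3* and at -128 in *Nexn*. It reads the same on both strands and is 1 of the forms of the wider CANNTG. It was in 12 of the 41 promoters matched for the muscle regulators and sarcomere genes (29.3%), in 18.9% of the 557 matched promoters of tested genes with a symbol and in 11.9% of all 27457 promoters. CANNTG was in 34 of the 41 (82.9%), 62.3% and 65.2%. Among the DEGs with a matched promoter, CAGCTG was in 16.9% of those that rose and 16.7% of those that fell. *Mymk*, *Msc* and others had no entry and were not analysed here. A match describes letters and not a binding site.

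Of the 22 genes of excitation and calcium handling, 7 rose, 0 fell in edgeR (0 with DESeq2, and 2 lower at an unadjusted p under 0.05) and 15 did not pass, and the median log2 fold change was 0.84. *Atp2a3*, a calcium pump of the reticulum, rose from 2.49 and 2.25 CPM to 11.7 and 9.60 CPM (2.17, SE 0.22, adjusted p = 4.00e-06). *Sspn*, sarcospan of the dystrophin complex, rose from 32.0 and 28.1 CPM to 77.1 and 62.6 CPM (1.22), *Kcnj12*, an inward rectifier potassium channel, by 1.11, and *Lrp4*, the agrin receptor at the neuromuscular junction, from 145 and 124 CPM to 306 and 238 CPM (1.01), a call lost when either HS3 library was left out. *Ryr1*, the calcium release channel of skeletal muscle, was at 78.5 and 94.0 CPM in HS3 and at 103 and 61.6 CPM in HS7 (-0.07, adjusted p = 0.906), and its groups overlapped. Without HS7 replicate 2 the list had 14 rises, and without either HS3 library 3. Without HS7 replicate 1 it had 2 falls, *Ryr1* (-0.48) among them.

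Few genes of muscle energy metabolism passed. Of 11 members 0 rose, 3 fell and 8 did not pass, with a median of 0.64 that turned to -0.16 without HS7 replicate 1. The share that fell was below that of the 752 genes with a symbol, of which 334 fell and 173 rose. At an unadjusted p under 0.05 in edgeR 3 were higher and 3 lower in HS7, with DESeq2 2 rose, with all 10 libraries in 1 fit or with no expression filter 3 rose, and without HS7 replicate 2, 7 rose. *Slc16a3*, a lactate exporter, fell from 27.7 and 28.4 CPM to 9.89 and 11.4 CPM (-1.40, SE 0.13, adjusted p = 1.74e-06). *Ppp1r3c*, a glycogen-targeting phosphatase subunit, fell by 2.78 on the log2 scale and *Pygm*, muscle glycogen phosphorylase, by 1.01, the latter call being lost without either HS3 library. *Ckm*, muscle creatine kinase, was at 22.7 and 21.1 CPM in HS3 and at 48.3 and 22.4 CPM in HS7 (0.69, adjusted p = 0.362).

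*Cdkn1c*, an inhibitor of cyclin-dependent kinases that marks cells leaving the cycle, is the 1 cell cycle gene with a symbol. It was at 4.58 and 6.99 CPM in HS3 and at 75.6 and 38.6 CPM in HS7, log2 fold change 3.28 (SE 0.52, adjusted p = 0.0258). Both HS7 libraries were several times above both HS3 libraries, but the gene passed under only 4 of the 10 alternatives, with adjusted p from 2.78e-98 to 0.251. The other 20 cell cycle genes listed had no symbol and were not analysed here. *Fbxo32*, the ubiquitin ligase atrogin-1 of muscle atrophy, was at 8.57 and 5.71 CPM in HS3 and at 11.997 and 8.72 CPM in HS7 (0.55, adjusted p = 0.0793).

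In the structural matrix list more genes fell than rose, as among all genes with a symbol. Of 45 collagens, fibrillins, proteoglycans and related genes, 23 fell, 9 rose and 13 did not pass. Beside them, 12.9% of all genes tested fell, and of the 752 with a symbol 334 fell and 173 rose. The median log2 fold change was -0.90, beside -0.70 over the 752, so the counts do not set this list clearly apart. *Fbn1*, the fibrillin of microfibrils, was at 2316 and 2289 CPM in HS3 and at 717 and 617 CPM in HS7 (-1.79, SE 0.09, adjusted p = 8.43e-09). *Fbn2* fell from 32.6 and 42.9 CPM to 7.62 and 6.16 CPM (-2.46). *Ltbp2*, which binds fibrillin, fell from 1419 and 1579 CPM to 444 and 440 CPM (-1.76). The 3 microfibril genes thus fell together.

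*Prelp*, a leucine-rich proteoglycan that anchors collagen, had the smallest adjusted p of the list, and fell from 301 and 316 CPM to 48.2 and 53.3 CPM (-2.60, SE 0.09, adjusted p = 5.16e-10). *Thbs4*, thrombospondin 4 of tendon and muscle matrix, fell from 107 and 117 CPM to 29.4 and 27.4 CPM (-1.98). *Col1a1*, the main chain of type I collagen, fell from 13911 and 17636 CPM to 7449 and 7602 CPM (-1.07, SE 0.11, adjusted p = 5.34e-06). Other matrix genes did not follow. *Dcn*, decorin, rose from 78.7 and 73.1 CPM to 295 and 228 CPM (1.78, SE 0.12, adjusted p = 3.46e-07), and *Postn*, periostin, was at 401 and 440 CPM in HS3 and at 587 and 449 CPM in HS7 (0.30, adjusted p = 0.0703).

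Collagen VI, a heterotrimer around muscle cells, split among its chains. *Col6a1* fell by 1.58 and *Col6a2* by 1.68 on the log2 scale, while *Col6a3* rose by 0.41, from 1516 and 1680 CPM to 2172 and 2068 CPM (adjusted p = 0.00215), a call that was lost without HS3 replicate 1 or HS7 replicate 1. These chains were named after their values were seen. For 22 of the 23 matrix genes that fell, HS3 had the highest mean of the 5 groups, and for 19 the HS7 mean lay within the range of Control, HS1 and HS14. The summed level of the list was between 31060 and 36530 CPM in HS3, between 16250 and 17120 CPM in HS7 and between 4987 and 15930 CPM in the other groups.

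Of 28 enzymes and inhibitors that build or cut matrix 12 fell, 6 rose and 10 did not pass, with a median of -1.01. Both shares were close to those of the 752 genes with a symbol, of which 334 fell and 173 rose. The counts therefore do not set this list apart. *Adamtsl3*, an ADAMTS-like glycoprotein, fell from 108 and 105 CPM to 20.0 and 16.9 CPM (-2.53, SE 0.11, adjusted p = 1.51e-09), and *Loxl3*, a lysyl oxidase that crosslinks collagen, from 156 and 178 CPM to 36.7 and 31.5 CPM (-2.29). *Has2*, a hyaluronan synthase, fell from 230 and 208 CPM to 72.9 and 66.2 CPM (-1.65), and *Sulf2*, a sulfatase that trims heparan sulfate, from 25.1 and 24.4 CPM to 5.94 and 6.19 CPM (-2.02). In each of the 4 both HS7 libraries were below both HS3 libraries, as in every gene that fell.

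Most markers of fibro-adipogenic progenitors fell. Of 15 markers 10 fell, 3 rose and 2 did not pass, beside 334 falls and 173 rises among the 752 genes with a symbol. The median log2 fold change was -1.62, and no marker was at 0 in both groups. The structural matrix list also holds 8 of them, of which 4 fell and 2 rose, while of the other 7 markers 6 fell and 1 rose. *Pdgfra*, the receptor that defines these cells, was at 298 and 290 CPM in HS3 and at 60.2 and 60.7 CPM in HS7 (-2.28, SE 0.08, adjusted p = 8.12e-10). *Thy1*, a surface protein of fibroblasts, fell from 863 and 996 CPM to 163 and 146 CPM (-2.59), *Scara5*, a ferritin receptor, from 33.6 and 28.7 CPM to 5.16 and 4.82 CPM (-2.64), and *Osr1*, a transcription factor of these progenitors, from 18.04 and 18.9 CPM to 1.17 and 0.612 CPM (-4.37).

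The 3 markers that rose were *Dcn*, *Col6a3* and *Islr*, the last (0.40) named after its value was seen, while *Lum* and *Col14a1* did not pass. *Dcn* passed under each alternative, but the calls of *Col6a3* and *Islr* were lost without HS3 replicate 1 or HS7 replicate 1, and that of *Islr* also without HS7 replicate 2. The summed markers were between 17520 and 21760 CPM in HS3, between 10630 and 10740 CPM in HS7 and between 2725 and 9051 CPM in the other groups. *Col1a1* alone made up most of the sum in each HS3 and HS7 library, so the sum mainly follows that gene. For all 10 markers that fell HS3 had the highest mean of the 5 groups. *Pdgfra*, for example, had a mean of 301 ± 5.00 CPM in HS3 and 62.5 ± 0.167 in HS7, beside 148 ± 1.498 in Control, 31.0 ± 0.766 in HS1 and 58.2 ± 1.21 in HS14 (SD, n = 2 each). The part of these cells in the falls of matrix, growth factor and Wnt genes was not tested.

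**Figure D4:**
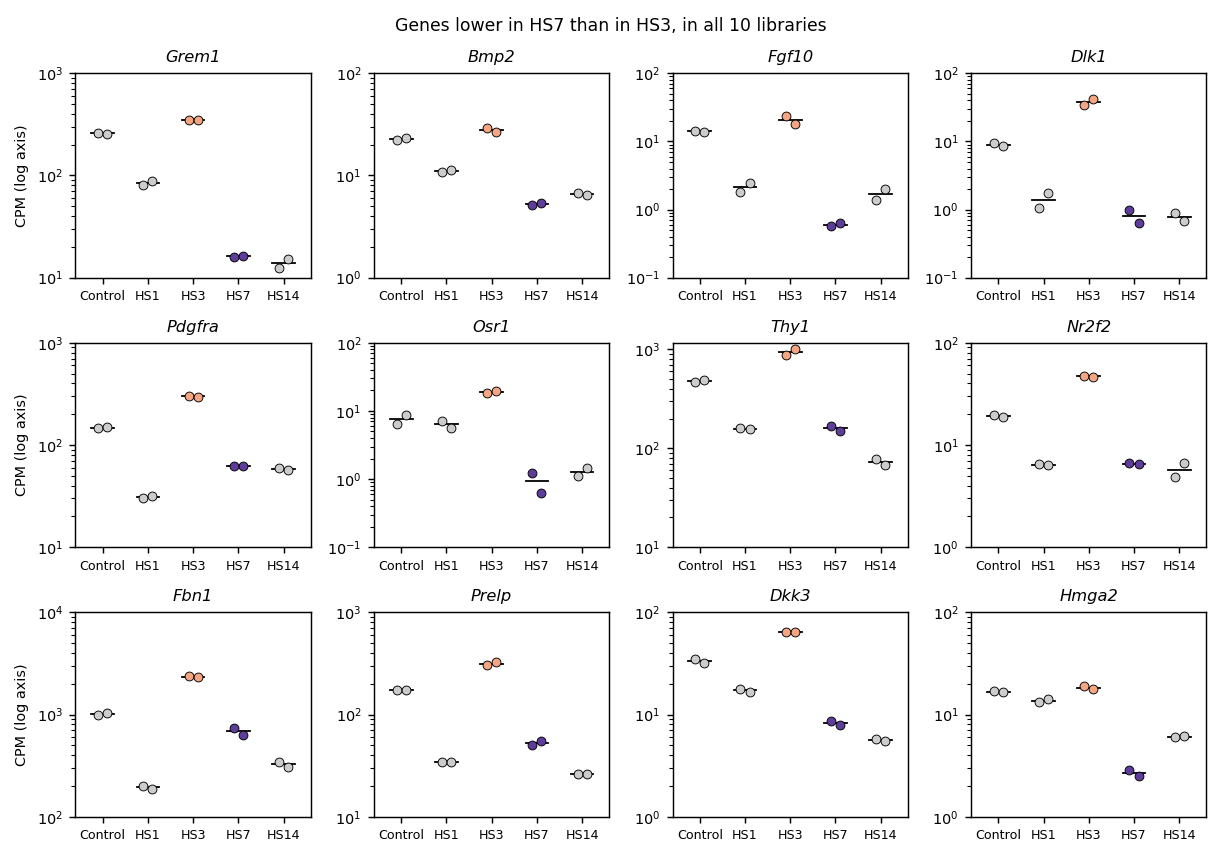
Each panel is 1 gene, each point 1 of the 10 libraries as CPM on a log axis, and each bar the mean of the 2 libraries of a group, with HS3 in orange, HS7 in purple and the other groups in grey. In all 12 genes HS3 had the highest mean of the 5 groups.

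More growth factors, cytokines and their secreted antagonists fell than rose, as among all genes with a symbol (334 of 752 fell and 173 rose). Of 32 measured members 17 fell, 7 rose and 8 did not pass, and the median log2 fold change was -1.24. *Grem1*, a secreted antagonist of bone morphogenetic proteins (BMPs), was at 344 and 340 CPM in HS3 and at 15.3 and 15.8 CPM in HS7, log2 fold change -4.46 (SE 0.09, adjusted p = 2.03e-12). *Bmp2*, a ligand of the pathway it blocks, fell in the same cultures from 28.5 and 26.1 CPM to 4.92 and 5.20 CPM (-2.43, SE 0.15, adjusted p = 2.86e-08). The replicates of these genes lay close together in each group.

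*Fgf10*, a fibroblast growth factor made by mesenchyme, fell from 23.3 and 17.3 CPM to 0.547 and 0.612 CPM (-5.11, SE 0.26, adjusted p = 6.74e-09). *Vegfd*, a lymphatic growth factor, fell from 151 and 141 CPM to 36.7 and 31.1 CPM (-2.11). *Dlk1* and *Il1rn*, given above, are members of this list too. *Gdf10*, a BMP-like factor named after its values were seen, was at 3.49 and 2.56 CPM in HS3 and at 0.0782 and 0 CPM in HS7, the latter both under 3 counts, so no fold is given. *Igf2*, insulin-like growth factor 2, was at 105 and 99.98 CPM in HS3 and at 92.2 and 55.0 CPM in HS7 (-0.48, adjusted p = 0.315). Both of its HS7 libraries were below both HS3 libraries, but the HS7 libraries differed widely.

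Among the growth factors that rose, all 7 had their highest mean of the 5 groups in HS7. *Tgfb2*, a transforming growth factor, was at 218 and 164 CPM in HS3 and at 547 and 524 CPM in HS7 (1.49), and *Fstl3*, an antagonist of activins, at 17.1 and 17.7 CPM and at 66.3 and 59.1 CPM (1.85). *Pdgfb*, a ligand of the platelet-derived growth factor receptors, rose from 1.40 and 1.55 CPM to 7.03 and 7.27 CPM (2.27). These 3 were named after their values were seen. *Pdgfb* thus rose where *Pdgfra* and *Pdgfrb*, which encode receptors of the family, fell.

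In the Wnt pathway 10 of 17 members fell, 5 rose and 2 did not pass, with a median of -1.38, beside 334 falls and 173 rises among the 752 genes with a symbol. Among ligands and receptors, *Wnt5a*, a ligand of the non-canonical branch, fell from 164 and 168 CPM to 73.6 and 56.6 CPM (-1.35, SE 0.11, adjusted p = 1.45e-06), *Wnt4* from 69.4 and 74.3 CPM to 24.9 and 30.5 CPM (-1.38), and *Ror2*, a receptor of Wnt5a, from 38.9 and 46.0 CPM to 8.83 and 6.35 CPM (-2.48). Among the modulators, *Dkk3*, a secreted protein of the Dickkopf family, fell from 63.0 and 63.0 CPM to 8.28 and 7.69 CPM (-2.98, SE 0.12, adjusted p = 8.66e-10), and *Nkd2*, an inhibitor within the cell, from 38.4 and 49.95 CPM to 7.11 and 5.77 CPM (-2.78). A ligand and its receptor fell together here, without overlap of the groups.

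The 5 members that rose were *Kremen2*, *Wif1*, *Wnt11*, *Fzd9* and *Dact1*, named after their values were seen, and the call of *Fzd9* was lost with DESeq2 and without HS3 replicate 2 or HS7 replicate 1. The best expressed of them were *Wif1*, a secreted Wnt inhibitor (from 5.38 and 4.42 CPM to 19.8 and 18.05 CPM, 1.96), *Dact1*, a Dishevelled-binding protein (from 6.68 and 6.99 CPM to 18.1 and 22.4 CPM, 1.57), and *Wnt11*, another non-canonical ligand (from 2.84 and 5.20 CPM to 15.4 and 13.8 CPM, 1.84). For all 10 that fell HS3 had the highest mean of the 5 groups, and for all 5 that rose HS7 did. The same held for 1261 of the 1701 genes that fell and 1028 of the 1327 that rose in the whole table.

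Developmental transcription factors, which fix cell identity and position, split into falls and rises. Of 45 members 25 fell, 13 rose and 7 did not pass, beside 334 falls and 173 rises among the 752 genes with a symbol. The median was -1.83, and 24 of the falls and 11 of the rises reached the fold change of a DEG. *Sox11*, an embryonic SoxC factor, rose from 16.1 and 15.3 CPM to 87.5 and 84.7 CPM (2.45, SE 0.10, adjusted p = 1.45e-09). Over the 5 groups it was lowest in HS3 (16.1 ± 0.539 CPM) and highest in HS7 (89.1 ± 2.36), with 24.4 ± 1.81 in Control, 35.2 ± 0.511 in HS1 and 41.4 ± 0.973 in HS14 (SD, n = 2 each).

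*Nr2f2*, the orphan receptor COUP-TFII of mesenchyme, fell from 46.4 and 45.2 CPM to 6.41 and 6.31 CPM (-2.85, SE 0.12, adjusted p = 2.13e-09), and *Ebf2*, a factor of adipogenic and mesenchymal precursors, from 55.7 and 52.1 CPM to 9.81 and 11.7 CPM (-2.32). The chromatin proteins *Hmga1* and *Hmga2*, which are high in dividing embryonic cells, both fell. *Hmga1* went from 168 and 184 CPM to 49.4 and 46.8 CPM (-1.87, SE 0.09, adjusted p = 3.58e-09) and *Hmga2* from 18.4 and 17.4 CPM to 2.74 and 2.41 CPM (-2.80, SE 0.18, adjusted p = 6.09e-08).

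The HS7 mean of *Hmga2*, 2.66 ± 0.247 CPM, was below those of Control (16.7 ± 0.135), HS1 (13.7 ± 0.825) and HS14 (6.04 ± 0.0875; SD, n = 2 each). Of the 25 factors that fell, HS3 was the highest of the 5 groups in 23 and HS7 the lowest in 12. In this respect the transcription factors differed from the matrix genes that fell, of which HS7 was the lowest group in 0 of 23, but the difference between the lists was not tested.

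Integrins, cadherins and guidance receptors were split, with 14 of 29 measured members falling, 10 rising and 5 not passing, and a median of -0.76. Among the 752 genes with a symbol 334 fell and 173 rose. *Cdh11*, the cadherin of mesenchyme, fell from 182 and 162 CPM to 42.1 and 31.8 CPM (-2.22, SE 0.13, adjusted p = 2.44e-07), *Pcdh7*, a protocadherin, from 42.5 and 39.0 CPM to 10.0 and 8.95 CPM (-2.10), and *Cdh3*, P-cadherin, from 16.3 and 17.0 CPM to 5.51 and 5.62 CPM (-1.58). *Itga8*, an integrin chain for fibronectin and nephronectin, rose from 42.7 and 44.3 CPM to 96.3 and 90.1 CPM (1.10, SE 0.09, adjusted p = 5.00e-07).

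Of 6 interferon-response genes 4 fell, 1 rose and 1 did not pass, with a median of -1.10, and without either HS3 library or HS7 replicate 1 none rose. *Ifitm3*, a membrane protein that restricts virus entry, fell from 145 and 163 CPM to 90.7 and 80.6 CPM (-0.85, SE 0.09, adjusted p = 7.62e-06), and its relative *Ifitm1* from 13.8 and 15.6 CPM to 5.90 and 5.58 CPM (-1.36). Both genes belong to 1 family, so their counts are uncertain where a read could come from either. *Usp18*, a protease that removes ISG15, fell by 2.13 on the log2 scale and *Apol9a* by 1.77, the latter call being lost without HS3 replicate 2 (adjusted p = 0.0104).

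The plot of all lists sets these groups side by side. The medians of the muscle lists lay to the right of 0, with most members not passing, and the median of the Notch genes lay furthest to the right. The matrix, growth factor, Wnt and transcription factor lists held both large falls and large rises.

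**Figure D5:**
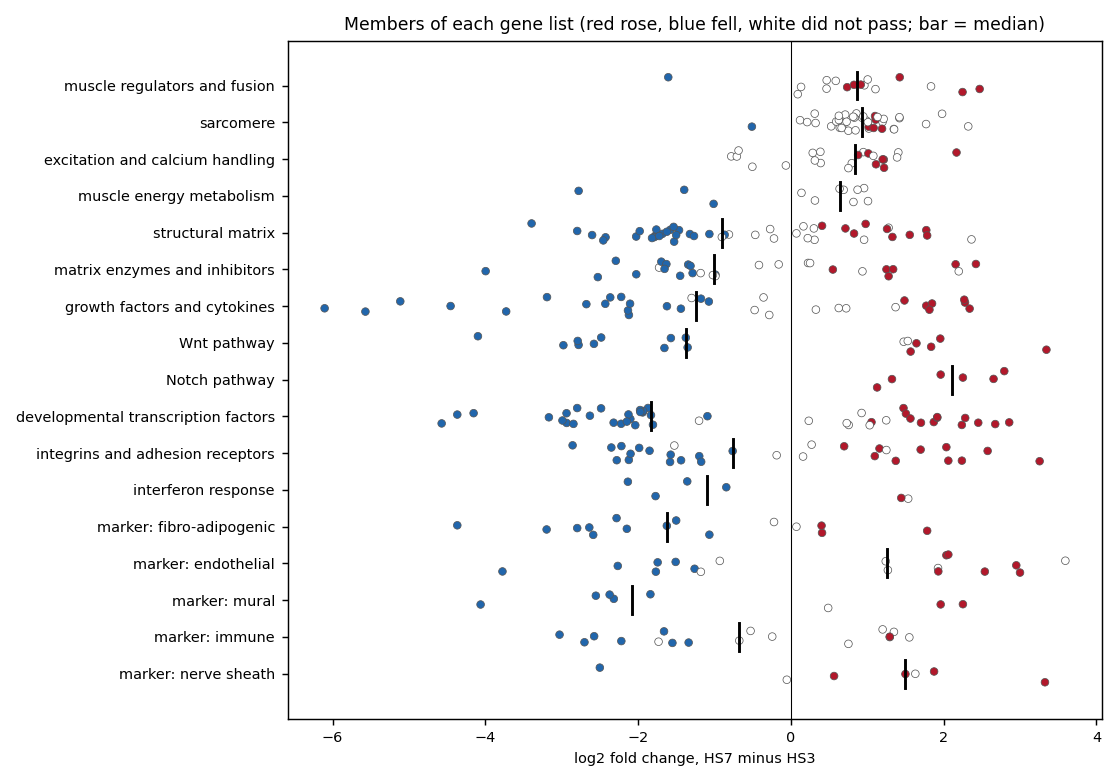
Each point is 1 gene of a list, placed by its log2 fold change, HS7 minus HS3, with red for genes that rose, blue for genes that fell and white for genes that did not pass an adjusted p of 0.01, and a black bar at the median of the list. The median is 2.11 for the Notch pathway, between 0.64 and 0.93 for the muscle lists and -1.83 for developmental transcription factors.

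Markers of further cell types were looked at in the same way. Of 18 measured endothelial markers 6 rose, 6 fell and 6 did not pass, and the rises came to 2 when either HS3 library was left out. Those that fell included *Esm1*, *Eng* (from 130 and 147 CPM to 54.5 and 43.0 CPM), *Acvrl1* (from 58.0 and 65.2 CPM to 19.5 and 17.3 CPM) and *Thbd* (-2.27), while those that rose included *Cdh5*, the defining cadherin of endothelium, named after its values were seen, which was at 0.598 and 0.621 CPM in HS3 and at 3.13 and 1.91 CPM in HS7, and whose call was lost without HS3 replicate 1, HS3 replicate 2 or HS7 replicate 1. The summed endothelial markers were between 333 and 348 CPM in HS3 and between 93.7 and 119.7 CPM in HS7, against the sign of the list's median of 1.26. That median turned to -1.04 when the counts were halved.

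Of 17 measured immune markers 7 fell, 1 rose and 9 did not pass, with *Mnda* (from 23.3 and 22.9 CPM to 4.22 and 2.87 CPM) as the fall with the smallest adjusted p. The immune markers that rose were 3 with DESeq2, 4 with all 10 libraries in 1 fit, 5 with no expression filter, 2 with halved counts, 2 without HS7 replicate 1, 5 without HS7 replicate 2 and 0 without HS3 replicate 2. The summed immune markers were at 173 to 183 CPM in HS3 and at 162 to 202 CPM in HS7. Of 7 nerve sheath markers 4 rose, among them *Erbb3*, a neuregulin receptor (from 22.1 and 20.3 CPM to 70.9 and 48.9 CPM, 1.499, a call lost when either HS3 library was left out), and *Lgi4* (1.87), while *S100b*, a calcium-binding protein of Schwann cells, fell from 33.9 and 32.5 CPM to 5.78 and 5.93 CPM (-2.50). No marker of these lists was at 0 in both groups.

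Set beside the other groups, the 2 directions of change looked unlike. Of the 432 DEGs that fell from HS3 to HS7, 402 had their highest mean of the 5 groups in HS3, and for 256 the HS7 mean lay within the range of Control, HS1 and HS14. Of the 214 DEGs that rose, 172 had their highest mean in HS7 and 133 their lowest in HS3, and 96 had both. Over all 13164 genes tested HS3 was the highest group in 3032 and HS7 in 3503. A gene that fell had to be higher in HS3 than in HS7 and a gene that rose the reverse, so these counts describe the DEGs and test nothing.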

How the data were processed

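RNA of cultured rat soleus myoblasts was sequenced by the authors from stranded, poly(A)-selected libraries on an Illumina instrument. The authors deposited raw counts per Ensembl gene from STAR and featureCounts 1.6.4, with no normalization. The methods name the genome mRatBN7.2, the processing notes Rnor_6.0. How read pairs and multiply mapped reads were counted is not given in the sources used here, and between 69.4% and 72.0% of counts from 1 to 20 were even in the 10 libraries. The counts of the 2 HS3 and 2 HS7 libraries were fitted with edgeR 4.0.16 in R 4.3.3 (filterByExpr, TMM, robust quasi-likelihood test, Benjamini-Hochberg adjustment over all 13164 genes tested, prior count 0.125), and every adjusted p-value is from this test unless another tool is named. A fold change reads HS7 minus HS3. Levels in 5 groups were normalized over all 10 libraries. On simulated data edgeR and DESeq2 were tested with known changes. Genes were named where they were among the 12 with a symbol that changed most in a direction (mean log2 CPM of at least 3, no overlap of libraries), in a fixed set, or among the 4 with the smallest adjusted p of a list. Of these, 1 of the 12 largest rises is not reported here. Members and lists were chosen with earlier results of these data known. Alternatives were DESeq2 1.42.0, size factors by RLE, every gene with a count, 1 fit of all 10 libraries, the replicate number as a block, halved counts, leaving out each library, and a log2 fold change beyond 1. Promoters came from RefSeq (GRCr8), with 557 of 752 symbols matched.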

Additional observations from a re-analysis of the deposited data

How the results depend on the processing

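With 2 libraries in each group, calls rest on few residual degrees of freedom, and a fit that leaves out 1 library assumes that the lone library varies like the other group. Leaving out each library in turn, 858 to 1353 genes rose and 1217 to 1532 fell at the adjusted p alone (858 rises without HS3 replicate 2, against 1327), and 142 to 262 DEGs rose (142 without HS3 replicate 2, against 214) and 330 to 459 fell. Over the members of the 12 functional lists, 75 rose and 110 fell, 40 and 85 of them as DEGs. Leaving out libraries gave 51 to 133 rises (133 without HS7 replicate 2), 99 to 119 falls, 30 to 60 DEGs that rose and 76 to 92 that fell. With a log2 fold change beyond 1, 479 DEGs rose and 724 fell, 65 of the rises and 105 of the falls among list members. These totals stayed within 1.5 times their value under DESeq2, size factors by RLE, no filter on expression, 1 fit of all 10 libraries, halved counts and the block. Counts of single lists moved further. Sarcomere rises (5) were 13 with DESeq2, 16 with no filter and 15 with all 10 libraries, energy metabolism rises (0) were 2, 3 and 3, and immune rises (1) were 3, 5 and 4, and 2 with counts halved. Interferon rises (1) were 2 with all 10 libraries, and the fall among muscle regulators (1) was 0 with RLE. The median of muscle energy metabolism (0.64) was -0.16 without HS7 replicate 1 and reached 1.14 without HS7 replicate 2, that of endothelial markers (1.26) was -1.04 with counts halved, and *Ryr1* (-0.07) ranged from -0.48 without HS7 replicate 1 to 0.07 without HS3 replicate 2 and 0.26 without HS7 replicate 2, and the cause was not tested. The replicate block gave 1349 rises and 1637 falls, 188 and 397 of them DEGs, and moved the rises from 5 to 10 for sarcomere, from 0 to 1 for energy metabolism and from 1 to 2 for immune markers. The differences between replicate 1 and replicate 2 in HS3 and in HS7 correlated by 0.121 over 9270 genes, and no label says that the numbers pair the libraries.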
